A study of Mus musculus with 42 samples.

Results

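Cholesterol synthesis and its control by the transcription factor SREBP2 were described through 27 genes, chosen by symbol from the 20018 gene symbols that the array names. Of these, 20 encode enzymes of the mevalonate, isoprenoid and sterol steps (Acat2, Hmgcs1, Mvk, Pmvk, Mvd, Idi1, Fdps, Ggps1, Fdft1, Sqle, Lss, Cyp51, Tm7sf2, Lbr, Msmo1, Nsdhl, Hsd17b7, Ebp, Sc5d and Dhcr7), 6 belong to the SREBP control machinery (Srebf2, Scap, Insig1, Insig2, Mbtps1 and Mbtps2) and 1, Stard4, encodes a sterol carrier. The list does not hold every enzyme of the pathway. The samples came from 15 male Muta™Mouse, a transgenic line that carries a bacterial reporter for scoring mutations, about 11 weeks of age. The polycyclic aromatic hydrocarbon benzo(k)fluoranthene (BkF), dissolved in olive oil, was given by daily oral gavage for 28 days at 25 (D1), 50 (D2) or 100 mg/kg-bw/day (D3), or olive oil alone (D0), and tissues were collected 72 h after the last dose. Liver was measured in 4 D0, 2 D1, 3 D2 and 4 D3 mice, lung in 4, 3, 4 and 4, and forestomach in 4, 3, 4 and 3, each on 1 two-colour array against a common reference RNA pooled from 11 mouse cell lines. Every value below is a log2 ratio of the tissue RNA to that reference, mice are given in ascending number within a group, and errors of changes are standard errors of the fit. A change was called where limma gave an adjusted p of at most 0.05, over all probes kept in the tissue, together with a change of at least 1.5-fold.

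Cells make cholesterol from acetyl-CoA through mevalonate, the isoprenoid farnesyl diphosphate and squalene, which is closed into lanosterol and trimmed to cholesterol. The precursor of SREBP2 (gene Srebf2) sits in the endoplasmic reticulum bound to the sterol sensor SCAP. When sterols are scarce the pair moves to the Golgi, where the proteases encoded by Mbtps1 and Mbtps2 release the active factor, and INSIG proteins hold the pair back when sterols are plentiful. Liver is a main site of this synthesis, and in many cells the enzyme genes follow SREBP2 together.

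Between 15632 and 33379 probes per array were well above background (57.6% of probes in the liver of D2 mouse 13 and 38.4% to 46.4% in the other livers), and all 27 members passed the filter on dim probes in all 3 tissues. Exposure was read from 2 cytochrome P450 genes induced through the aryl hydrocarbon receptor. Cyp1a1 differed from vehicle by 2.28 ± 1.26, 5.69 ± 1.11 and 5.26 ± 1.03 in liver at D1, D2 and D3 (limma adjusted p = 1, 0.114 and 0.13), by 4.11 ± 0.81, 6.29 ± 0.75 and 6.8 ± 0.75 in lung (adjusted p = 1, 0.00912 and 0.00341, limma) and by 0.58 ± 0.85, 2.25 ± 0.79 and 3.24 ± 0.85 in forestomach (limma adjusted p = 0.801, 0.561 and 1). Its relative Cyp1b1 was called in lung at D2 and D3 and stood at 0.033 ± 0.39 in D1 forestomach, so neither gene passed even an unadjusted p of 0.05 there. In D1 liver Cyp1b1 stood at 0.86 ± 0.68, and neither gene passed that limit (limma unadjusted p = 0.0948 for Cyp1a1 and 0.228 for Cyp1b1). Liver markers were present in every liver array, with a mean score over 6 genes of 7.77 to 8.09 at D0, 7.78 to 7.9 at D1, 7.49 to 7.85 at D2 and 7.35 to 7.84 at D3, and lung markers in every lung array, from 5.07 to 6.11. Forestomach squamous markers scored from 2.25 to 3.39 in the forestomach arrays. RNA came from randomly taken pieces of each tissue, and some arrays also held markers of other tissues. Liver markers scored from 0.18 to 2.93 in the forestomach arrays, and 0.18, 2.65, 2.32 and 0.56 in the vehicle ones. The part of these markers in the forestomach values was not tested. Skeletal muscle markers scored 3.84 in the liver of D3 mouse 17 and 4.49 in the lung of D2 mouse 12, and between −0.61 and −0.13 in the other liver and lung arrays. The lung of D2 mouse 12 also held forestomach squamous markers at 2.3, where the other lungs had −0.51 to −0.17. Brown fat markers scored 5.38 in it and at most 2.6 in the other lungs. In the lung of D1 mouse 7 the glandular stomach markers scored 3.72, where the next lung array had 1.25, and the white fat markers 4.36. White fat also scored 3.64 in the lung of D2 mouse 15, 3.47 in D2 mouse 12, 2.85 in D3 mouse 20 and 2.25 in D1 mouse 8, and from 0.21 to 1.77 in the other lungs. In liver it scored 3.36 in D3 mouse 17 and 1.82 in D3 mouse 20 and from −0.18 to 0.037 in the others, and pancreatic acinar markers scored 1.18 in D3 mouse 17 and at most 0.40 in the others. The 8 glandular stomach markers scored from 4.78 to 6.19 in 9 forestomach arrays and from 0.60 to 1.90 in the other 5 (D0 mice 1 and 4, D2 mouse 11, D3 mice 16 and 20), so the D1 forestomachs, at 5.71 to 5.87, were all of the first kind. White fat markers scored 3.21 in the forestomach of D0 mouse 4, 1.73 in D0 mouse 1, 0.66 in D0 mouse 2 and 5.27 in D3 mouse 16, and from −0.16 to 0.19 in the other forestomachs, all D1 and D2 arrays among them. The column of an array on its slide followed the dose: D0 sat in column 1 on 11 of 12 arrays, D1 in column 2 on 8 of 8, D2 in column 3 on 11 of 11 and D3 in column 4 on 10 of 11, so dose and column cannot be told apart. Within a bulk sample, fewer cells of a type and less RNA per cell cannot be told apart.

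The bases before the start sites of 4 enzyme genes are shown, chosen from the liver values described below. Hmgcs1 and Mvd had the largest differences in D2 and D3 liver. Acat2 and Ggps1 correlated negatively with the other enzymes within groups. At D2 the lowest enzyme was Sc5d (−0.34), whose bases are not shown. The sequences are RefSeq on GRCm38.p6, the 250 bases upstream of the start on the strand of the gene. A match to TCACNCCAC (a sterol regulatory element) or CCAAT (the site of NF-Y, a partner of SREBP) on either strand is in capitals.
Hmgcs1 (chr13:119690101-119690350, plus strand): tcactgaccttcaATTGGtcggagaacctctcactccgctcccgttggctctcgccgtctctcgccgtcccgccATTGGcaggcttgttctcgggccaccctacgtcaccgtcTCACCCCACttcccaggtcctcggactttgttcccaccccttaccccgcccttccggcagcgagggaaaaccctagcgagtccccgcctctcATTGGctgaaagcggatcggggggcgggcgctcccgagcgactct
Mvd (chr8:122443423-122443672, minus strand): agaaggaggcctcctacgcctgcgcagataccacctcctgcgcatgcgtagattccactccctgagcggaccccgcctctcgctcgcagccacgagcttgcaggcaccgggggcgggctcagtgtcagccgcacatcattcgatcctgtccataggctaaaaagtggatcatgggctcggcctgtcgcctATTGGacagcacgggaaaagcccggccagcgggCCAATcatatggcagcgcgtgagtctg
Ggps1 (chr13:14063489-14063738, minus strand): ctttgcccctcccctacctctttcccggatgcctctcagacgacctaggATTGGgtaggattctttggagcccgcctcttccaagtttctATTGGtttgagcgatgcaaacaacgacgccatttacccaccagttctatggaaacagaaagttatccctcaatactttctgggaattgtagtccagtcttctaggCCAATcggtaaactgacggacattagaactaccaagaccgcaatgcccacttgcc
Acat2 (chr17:12960726-12960975, minus strand): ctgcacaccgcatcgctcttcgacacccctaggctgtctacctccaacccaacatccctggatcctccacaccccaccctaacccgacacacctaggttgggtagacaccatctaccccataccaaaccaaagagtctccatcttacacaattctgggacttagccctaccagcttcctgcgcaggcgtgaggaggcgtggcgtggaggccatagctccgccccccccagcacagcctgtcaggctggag
Hmgcs1 held both kinds of match and Mvd and Ggps1 CCAAT alone, while neither string occurred in the Acat2 stretch. Windows of 250 bases before to 50 after the start were found for 23 members. TCACNCCAC occurred in 1 of the 23 (Hmgcs1, 4.35%) and in 1.22% of 27025 RefSeq windows, and CCAAT in 18 of 23 (78.3%) against 37.9%. The core of the xenobiotic response element, GCGTG, which binds the aryl hydrocarbon receptor, occurred in 13 of 23 members (56.5%) against 32.5% of all windows. TCACNCCAC with G at its open base also contains the reverse complement of GCGTG. These are matches of letters and not sites shown to be bound.

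Vehicle mice gave the starting levels of the members in the 3 tissues. Most members were highest in liver, and 18 of 27 followed the order liver, forestomach, lung in their means. Among those 18, liver and forestomach did not pass the call for Hmgcs1, Sqle, Hsd17b7 and Mbtps2, nor forestomach and lung for Acat2, Ebp, Scap and Mbtps2. Liver arrays were scanned on 2 slides of their own with another version of the scanner software, so tissue and slide cannot be told apart in the contrasts with liver, whereas lung and forestomach shared 4 slides.

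Liver against lung, 25 of 27 members were called, where 40.8% of all 37076 probes were called. These were 22 members higher in liver (background 17.4%) and 3 lower (background 23.4%), and the median member difference was 2.39 against −0.019 over all probes. Tm7sf2, which encodes a sterol C14 reductase, read 5.74, 5.59, 5.81 and 5.73 in liver, 0.40, 0.34, −0.022 and −0.28 in lung and 4.41, 3.79, 3.31 and 2.93 in forestomach. The tissues did not overlap, and the liver to lung difference was 5.61 ± 0.29 (48.8-fold, limma adjusted p = 2.48e-18). Lbr, an inner nuclear membrane protein with the same reductase activity, read −2.31, −2.37, −2.13 and −2.32 in liver, −0.48, −0.39, −0.40 and −0.61 in lung and 0.16, −1.0, −0.56 and −0.70 in forestomach. It was lower in all 4 livers than in any lung or forestomach, by 3.51-fold against lung (−1.81 ± 0.15, limma adjusted p = 2.76e-12), while its second probe was well above background on 0 of 13 liver arrays.

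Sc5d, the sterol C5 desaturase, was 26-fold higher in liver than in lung (4.7 ± 0.21), Acat2, a cytosolic acetyl-CoA acetyltransferase at the head of the pathway, 17.5-fold (4.13 ± 0.14) and Dhcr7, a late sterol reductase, 11.8-fold (3.55 ± 0.19), each with a limma adjusted p of 6.17e-18 or smaller. Insig1 and Insig2, which retain the SREBP and SCAP pair, were 2.77 ± 0.24 and 3.09 ± 0.22 higher. Srebf2 itself did not pass, at 0.086 ± 0.16 (95% interval −0.25 to 0.42), but its second probe differed by 1.04 (limma adjusted p = 0.00564). Ggps1, which makes geranylgeranyl diphosphate for protein prenylation, was lower in liver by 2.69-fold (−1.43 ± 0.22). Fdft1, squalene synthase, differed by 2.39 ± 0.30, and its second probe was well above background on only 2 of 13 liver and 3 of 15 lung arrays. Mbtps1, the SREBP protease gene, differed by −0.96 ± 0.16, lower in liver, but its second probe, well above background on 13 of 13 liver and 13 of 15 lung arrays, differed by 0.24, and with the mean over both probes Mbtps1 was not called.

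Liver against forestomach, 20 members were called (37.5% of all probes), 17 higher in liver (background 17%) and 3 lower, namely Lbr, Srebf2 and Ggps1 (background 20.6%). The second probe of Srebf2, well above background on 6 of 14 forestomach arrays, had the opposite sign there, and with the mean over both probes Srebf2 was not called (−0.072). Ggps1 lost its call without vehicle forestomach mouse 4 (−0.50, limma adjusted p = 0.0698), without mouse 2 and with the mean over its probes. Hsd17b7 gained one without vehicle forestomach mouse 1 (0.72), and Mvk and Mbtps2 with the ratios of the scanner software (−0.60 and 0.93). Lung against forestomach, 19 were called (33.5% of all probes), of which only Mbtps1 and Ggps1 were higher in lung (background 18.4%) and 17 lower (background 15.1%). Tm7sf2 was 11.3-fold lower in lung (−3.5 ± 0.29) and Hsd17b7, a 3-ketosteroid reductase, 5.4-fold lower (−2.43 ± 0.28), both with a limma adjusted p of 6.36e-09 or smaller. Without vehicle forestomach mouse 1, Fdft1 (−0.58, limma adjusted p = 0.115) and Ggps1 (0.56) were not called, nor were they with the mean over the probes of a gene. With the slide as a block, where the share of all probes called is not given, 20 members were called, Acat2 being added. Acat2 was called in 6 of 15 alternatives and Scap in 2. The glandular stomach score of the vehicle forestomachs was 0.60 in mouse 1, 0.95 in mouse 4, 5.78 in mouse 2 and 5.65 in mouse 3, and its part in these contrasts was not tested.

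**Figure D1:**
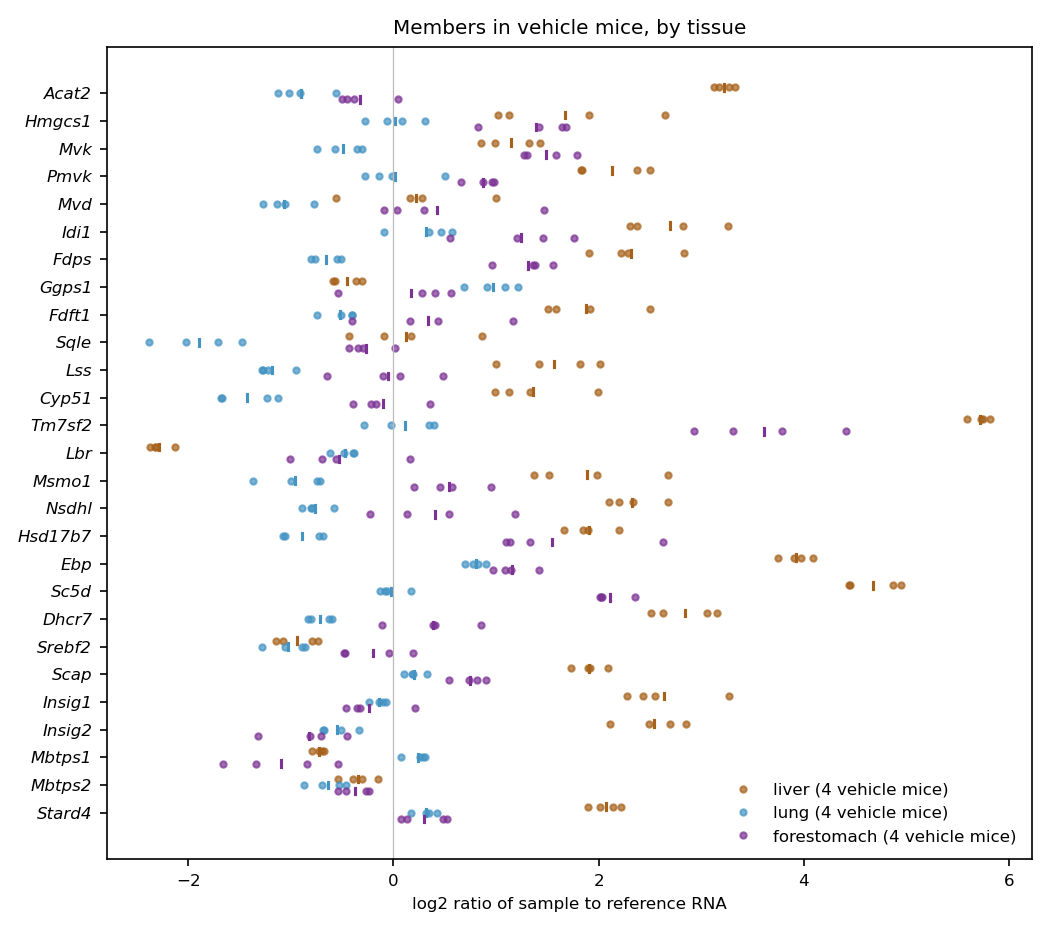
Log2 ratio to the reference RNA (horizontal axis) of the 27 members (vertical axis) in the 4 vehicle mice of each tissue, 1 point per mouse, with a tick at the group mean. Tm7sf2 sat between 5.59 and 5.81 in liver and between −0.28 and 0.40 in lung, and Lbr was lowest in liver.

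Under BkF, no member was called in liver at any dose or in the dose trend by limma, where 0% (D1), 0.0427% (D2), 0.0525% (D3) and 0% (trend) of 30449 probes were called. The direction was mostly upward: 24 of 27 members were above the vehicle mean at D1, 20 at D2 and 21 at D3, against 49.2%, 48.7% and 48.8% of all probes. The median member change was 0.38 at D1, 0.25 at D2 and 0.22 at D3 (0.43, 0.43 and 0.32 over the 20 enzymes), while the median of all probes lay between −0.0057 and −0.0022. The 3 comparisons share the same 4 vehicle mice, so they are not independent. At an unadjusted p under 0.05, 2 members were higher at D1 (0.9% of all probes), 6 at D2 (5.16%) and 2 at D3 (3.91%), and none was lower at D1 (0.634%) or D2 (5.55%) and 1 at D3 (3.89%). The D1 members were Lss and Sc5d, the D2 members Hmgcs1, Mvk, Mvd, Sqle, Hsd17b7 and Srebf2, and the D3 members Mvk and Mvd, with Acat2 lower. The trend held Mvk and Mvd upward (4.13%) and Acat2 downward (4.48%).

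Early in the pathway, Hmgcs1, the HMG-CoA synthase, read 1.91, 1.02, 2.64 and 1.13 in the vehicle mice, 2.97 and 2.5 at D1, 1.66, 3.86 and 2.58 at D2 and 2.46, 2.58, 2.08 and 2.68 at D3. Vehicle mice 2 and 4 were lowest and D2 mouse 12 highest, and the groups overlapped at every dose. The change was 1.06 ± 0.51 at D1, 1.03 ± 0.45 at D2 and 0.78 ± 0.42 at D3 (limma adjusted p = 1, 0.446 and 0.686). Mvd, which decarboxylates mevalonate diphosphate, gave 0.28, 0.16, 1.0 and −0.56 in the vehicle mice, 0.70 and 0.59 at D1, 0.16, 1.88 and 1.76 at D2 and 1.19, 1.37, 0.47 and 1.36 at D3. In 2 of 3 D2 mice and 3 of 4 D3 mice it was above every vehicle mouse, a difference of 1.04 ± 0.41 at D2 and 0.88 ± 0.38 at D3 (limma adjusted p = 0.404 and 0.607). Mvk, mevalonate kinase, differed by 0.43 ± 0.28, 0.55 ± 0.25 and 0.53 ± 0.23 at the 3 doses, and both D1 mice were above all vehicle mice.

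Acat2 went the other way. Its ratios were 3.32, 3.12, 3.17 and 3.27 in the vehicle mice, 3.25 and 3.14 at D1, 3.28, 2.85 and 2.97 at D2 and 2.88, 2.93, 2.94 and 3.1 at D3. All 4 D3 mice were below all vehicle mice, a change of −0.26 ± 0.10 (limma adjusted p = 0.583), and the trend was −0.27 ± 0.10 per 100 mg/kg-bw/day (adjusted p = 0.463, limma). It was the only member that did not overlap downward at D3 (background 3.04%), and none did so upward (background 2.96%). At D1, Mvk, Lss and Sc5d did not overlap upward (background 6.12%) and none downward (background 5.2%). At D2 no member separated from the vehicle mice in either direction (background 4.51% upward and 4.76% downward). Pmvk, the next kinase after Mvk, was at 0.30 ± 0.28, 0.21 ± 0.25 and 0.078 ± 0.23.

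Among the isoprenoid and squalene steps, Idi1, an isomerase of the 5-carbon units, read 2.82, 2.38, 3.26 and 2.3 in the vehicle mice, 3.6 and 3.06 at D1, 2.58, 3.76 and 3.07 at D2 and 2.9, 3.07, 2.93 and 3.26 at D3. Fdft1 read 1.91, 1.58, 2.5 and 1.51 in the vehicle mice, 2.48 and 2.15 at D1, 1.76, 2.84 and 2.48 at D2 and 2.19, 2.38, 2.11 and 2.34 at D3. Both were again low in vehicle mice 2 and 4 and highest in D2 mouse 12, and their largest changes were 0.64 ± 0.31 for Idi1 at D1 and 0.49 ± 0.25 for Fdft1 at D2, not called. Fdps, farnesyl diphosphate synthase, differed by 0.51 ± 0.26 at D1 and 0.24 ± 0.21 at D3. Ggps1 did not share the direction, at −0.10 ± 0.13, −0.0068 ± 0.12 and −0.17 ± 0.11.

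Of the sterol steps, Sqle, the squalene epoxidase that starts them, gave 0.17, −0.10, 0.87 and −0.44 in the vehicle mice, 0.68 and 0.74 at D1, 0.021, 1.87 and 1.15 at D2 and 0.82, 1.06, 0.52 and 0.88 at D3. The largest values were in D2 mice 12 and 13 and in D3 mice 17 and 20, and D2 mouse 11 stayed within the vehicle range. Sqle differed by 0.58 ± 0.41 at D1, 0.89 ± 0.36 at D2 and 0.69 ± 0.34 at D3 (limma adjusted p = 1, 0.414 and 0.651). Cyp51, the lanosterol demethylase, read 1.33, 0.99, 1.99 and 1.13 in the vehicle mice, 1.93 and 1.77 at D1, 1.04, 2.62 and 1.7 at D2 and 1.77, 1.81, 1.4 and 1.91 at D3, and its changes lay between 0.36 ± 0.29 and 0.49 ± 0.35. Lss, lanosterol synthase, was 0.85 ± 0.36 higher at D1, 0.51 ± 0.32 at D2 and 0.33 ± 0.30 at D3. Msmo1, Nsdhl and Hsd17b7, which remove methyl groups of lanosterol, had changes from 0.31 to 0.66 at D2 and D3. Over the 3 doses the changes were 0.036 to 0.14 for Ebp, the sterol isomerase, −0.098 to 0.09 for Tm7sf2, 0.077 to 0.23 for Lbr and 0.22 to 0.34 for Dhcr7. Sc5d was at 0.51 ± 0.22 at D1 but −0.34 ± 0.19 at D2.

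Of the control genes, Srebf2 read −0.80, −1.15, −0.74 and −1.07 in the vehicle mice, −0.43 and −0.85 at D1, −0.90, −0.20 and −0.57 at D2 and −0.78, −0.79, −0.67 and −0.76 at D3. It was higher by 0.29 ± 0.19, 0.38 ± 0.16 and 0.19 ± 0.15, with a limma adjusted p of 0.434 at D2, and its second probe had the opposite sign at every dose, at −0.13, −0.091 and −0.17. Insig1, itself a gene that SREBP activates, gave 2.43, 2.55, 3.27 and 2.27 in the vehicle mice, 2.7 and 2.72 at D1, 1.97, 2.69 and 2.99 at D2 and 2.57, 3.13, 2.71 and 2.95 at D3. Insig2 gave 2.49, 2.11, 2.85 and 2.7 in the vehicle mice, 2.65 and 3.56 at D1, 2.81, 2.96 and 1.9 at D2 and 2.46, 2.58, 3.01 and 1.96 at D3. Their groups overlapped at every dose, with changes no larger than 0.21 ± 0.24 for Insig1 and 0.57 ± 0.35 for Insig2. The second probe of Insig2 was at −0.21 at D2. Scap, Mbtps1 and Mbtps2 had changes of −0.20 to 0.11, and the second probe of Mbtps1 was at −0.085, −0.30 and −0.23. Stard4, which carries cholesterol between membranes, read 2.22, 1.89, 2.14 and 2.02 in the vehicle mice, 2.48 and 2.05 at D1, 2.21, 2.39 and 2.16 at D2 and 2.12, 2.12, 1.98 and 2.54 at D3, with changes of 0.12 to 0.20 that were not called. Its second probe, well above background on 13 of 13 liver arrays, had the opposite sign at every dose, at −0.13, −0.025 and −0.13.

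**Figure D2:**
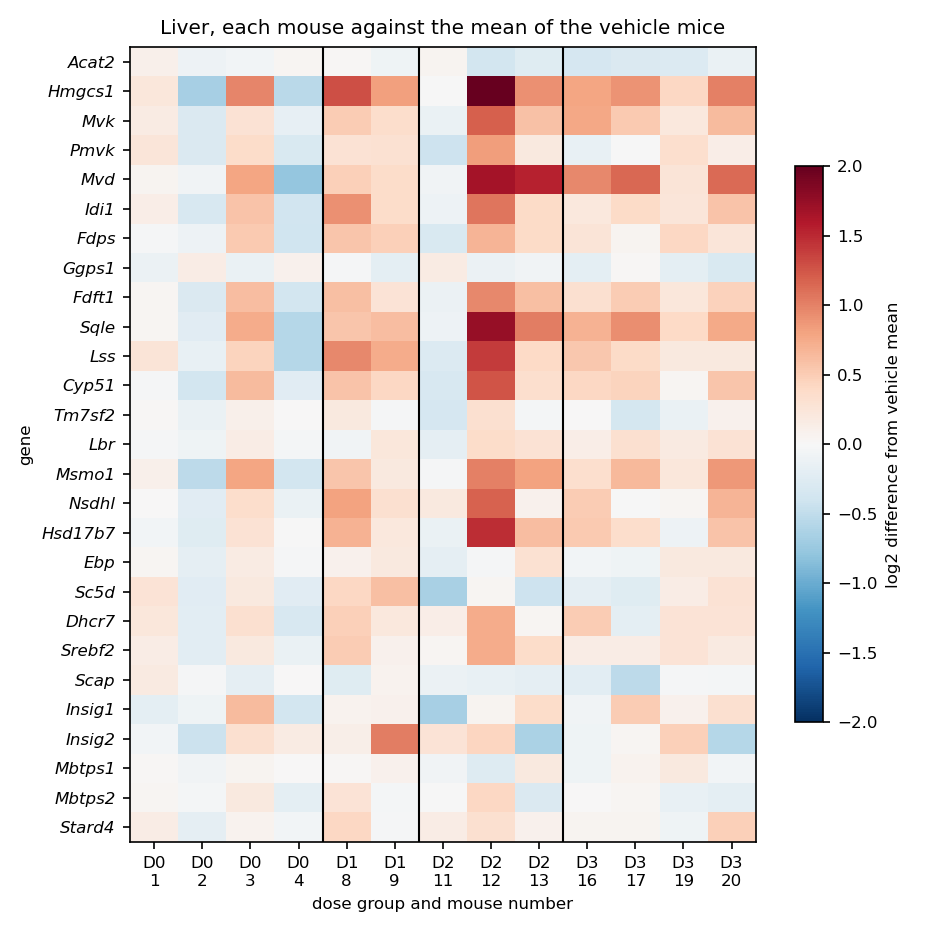
Log2 difference of each liver from the mean of the 4 vehicle livers (colour), with genes in rows and the 13 mice in columns by dose group. Most enzymes share the colour of their mouse: D2 mouse 12 is high, vehicle mice 2 and 4 are low, and Acat2 and Ggps1 do not follow.

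The livers also differed from one another within groups. The median of the 20 enzymes relative to the vehicle mean was 0.052, −0.23, 0.36 and −0.27 in the vehicle mice, 0.53 and 0.32 at D1, −0.12, 0.98 and 0.36 at D2, and 0.33, 0.34, 0.21 and 0.38 at D3. Vehicle mouse 3 was therefore above D1 mouse 9 and 3 of the 4 D3 mice, and D2 mouse 11 below vehicle mouse 1. Of the 20 enzymes, 18 were above the vehicle mean in vehicle mouse 3 and in D1 mouse 8, and 1 in vehicle mouse 2. Without D2 mouse 12 the D2 median of the members was 0.061, without D2 mouse 11 it was 0.52, without vehicle mouse 3 it was 0.41, and without D2 mouse 13, the array with the most probes above background, it was 0.35. The D2 change without D2 mouse 12 and without D2 mouse 11 was 0.45 and 1.55 for Hmgcs1, 0.74 and 1.6 for Mvd and 0.46 and 1.38 for Sqle. The liver marker score was below every vehicle liver in D2 mice 12 (7.49) and 13 (7.71) and in 3 of 4 D3 mice, and the brown fat score of D2 mouse 12 (1.06) was the highest of the livers. The part of these scores in the changes was not tested. Without D3 mouse 17, whose liver held skeletal muscle, white fat and pancreatic acinar markers, 21 members were above vehicle at D3 with a median of 0.20, and without D3 mouse 20, with the other high white fat score, 21 were above with a median of 0.19. Without vehicle mouse 4 the D3 median was 0.11, with 20 members above, and without D3 mouse 19 the number above was 18. The D1 median was 0.22 without D1 mouse 8, which left 1 D1 liver, and 0.25 without vehicle mouse 4. Within the slides, the median member difference was 0.47, 0.42 and 0.22 at D1, D2 and D3 on one and 0.16, 0.22 and 0.19 on the other.

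The joint movement was measured, as a description only, by correlating the deviations of each mouse from its group mean over the 13 livers. The mean Pearson r over the 190 pairs of enzymes was 0.48 in liver, where the mean over all probe pairs was 0.0038. In liver 137 enzyme pairs (72.1%) exceeded 0.5, and the share of all probe pairs over 0.5 is not given for any tissue. It was 0.12 in lung over 15 arrays and 0.14 in forestomach over 14, with 17.4% and 26.8% of pairs over 0.5. In liver Hmgcs1 (mean r with the other enzymes 0.68), Idi1 (0.67), Cyp51 (0.67) and Fdft1 (0.66) were most like the rest, whereas Ggps1 (−0.58) and Acat2 (−0.41) ran against them. Srebf2 had a mean r of 0.63 with the enzymes, Insig1 0.49, Insig2 0.013 and Scap −0.099. All pairs within a tissue share the same arrays. The within-group SD of the enzymes in liver had a median of 0.38, against 0.19 over all probes, in lung 0.22 against 0.20 and in forestomach 0.41 against 0.27.

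**Figure D3:**
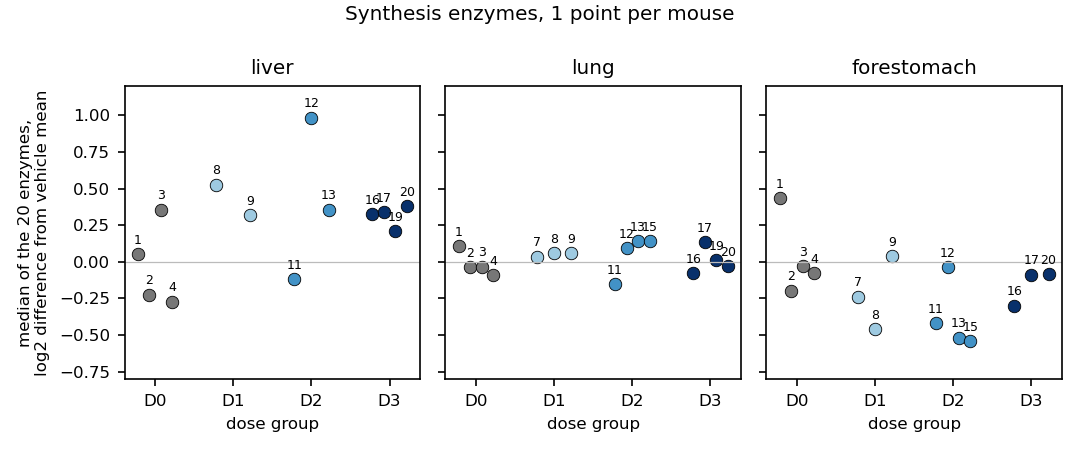
Median over the 20 enzymes of the log2 difference from the vehicle mean (vertical axis), 1 point per mouse with its number, by dose group (horizontal axis) in each tissue. Liver mice range from −0.27 to 0.98, lung mice from −0.15 to 0.14 and forestomach mice from −0.54 to 0.43.

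In lung the members lay close to the vehicle level at every dose. None was called by limma at D1, D2, D3 or in the trend, where 0%, 0.0153%, 0.0336% and 0.0367% of 32695 probes were called. The median member change was 0.069 at D1, 0.02 at D2 and 0.023 at D3, and 19, 14 and 15 of 27 members were above vehicle (47.6%, 48.6% and 50.9% of all probes). At an unadjusted p under 0.05, Sc5d was higher at D1 (0.682% of all probes) and Lss lower (1.08%), Lbr higher at D2 (2.18%) with none lower (2.07%), and Srebf2 higher at D3 (3.92%) and Lss lower (4.1%). In the trend Lss alone was lower (4.17%) and none was higher (4.31%).

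Lss read −0.95, −1.22, −1.28 and −1.27 in the vehicle mice, −1.64, −1.5 and −1.23 at D1, −1.32, −1.21, −1.18 and −1.35 at D2 and −1.77, −1.38, −1.59 and −1.41 at D3 in lung. All 4 D3 mice were below all vehicle mice, a change of −0.36 ± 0.12 (0.78 times the vehicle level, limma adjusted p = 0.438), and it was the only member lower without overlap at D3 (background 2.38%). Sc5d gave −0.064, −0.083, 0.17 and −0.13 in the vehicle mice, 0.46, 0.092 and 0.65 at D1, −0.41, 0.0065, −0.38 and 0.16 at D2 and 0.09, 0.03, 0.25 and −0.059 at D3. Here 2 of 3 D1 mice were above all vehicle mice, a change of 0.43 ± 0.16 (limma adjusted p = 1). Of these, D1 mouse 9 at 0.65 had a white fat score of 0.83 and a glandular stomach score of 0.43, and D1 mouse 7 at 0.46 had scores of 4.36 and 3.72. The part of these markers was not tested. The changes at D2 and D3 were −0.13 ± 0.15 and 0.10 ± 0.15. Lbr read −0.48, −0.39, −0.40 and −0.61 in the vehicle mice, −0.59, −0.41 and −0.60 at D1, −0.23, −0.26, 0.054 and −0.27 at D2 and −0.48, −0.53, −0.25 and −0.86 at D3. All 4 D2 mice were above all vehicle mice (background 1.2%), by 0.29 ± 0.12 (limma adjusted p = 1), but D3 was at −0.064 ± 0.12. Its second probe, well above background on 15 of 15 lung arrays, was at 0.13, 0.22 and 0.22 at D1, D2 and D3, so the probes had opposite signs at D1 and D3.

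The other markers of the pathway overlapped between doses. Hmgcs1 read 0.08, −0.28, −0.058 and 0.31 in the vehicle mice, −0.30, −0.14 and 0.57 at D1, −0.22, −0.23, 0.15 and 0.17 at D2 and −0.059, −0.004, 0.039 and 0.55 at D3. Idi1 read 0.57, 0.34, 0.46 and −0.094 in the vehicle mice, 0.49, 0.39 and 0.28 at D1, 0.14, 0.31, 0.47 and 0.45 at D2 and 0.38, 0.67, 0.35 and 0.24 at D3. Neither gene differed from vehicle by more than 0.12 at any dose. Fdft1 gave −0.41, −0.52, −0.41 and −0.74 in the vehicle mice, −0.79, −0.44 and −0.65 at D1, −0.72, −0.42, −0.57 and −0.49 at D2 and −0.63, −0.35, −0.59 and −0.83 at D3, and its changes were −0.11 to −0.030. Sqle gave −1.71, −2.38, −2.02 and −1.48 in the vehicle mice, −1.7, −1.84 and −1.16 at D1, −1.94, −2.0, −1.55 and −1.74 at D2 and −1.69, −1.59, −1.69 and −1.27 at D3, with vehicle mouse 2 the lowest of all lungs. It differed by 0.33 ± 0.21 at D1 and 0.34 ± 0.19 at D3 (limma adjusted p = 0.702 at D3). Cyp51 gave −1.24, −1.12, −1.67 and −1.68 in the vehicle mice, −1.43, −1.28 and −1.43 at D1, −1.6, −1.57, −1.27 and −1.74 at D2 and −1.68, −1.5, −1.65 and −1.37 at D3, with changes of −0.12 to 0.047.

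Among the control genes in lung, Srebf2 read −1.06, −1.28, −0.89 and −0.86 in the vehicle mice, −1.0, −1.1 and −0.77 at D1, −1.03, −1.36, −0.92 and −1.07 at D2 and −0.96, −0.42, −0.87 and −0.60 at D3. D3 mice 17 and 20 were above all vehicle mice, and the D3 change was 0.31 ± 0.14 (limma adjusted p = 0.612), with its second probe at −0.15. Insig1 gave −0.14, −0.073, −0.24 and −0.10 in the vehicle mice, −0.014, −0.039 and −0.15 at D1, −0.40, −0.59, −0.11 and −0.31 at D2 and 0.027, 0.38, −0.13 and −0.31 at D3. Insig2 gave −0.68, −0.68, −0.51 and −0.33 in the vehicle mice, −0.59, −0.69 and −0.51 at D1, −0.55, −0.81, −0.56 and −0.35 at D2 and −0.60, −0.74, −0.52 and −0.56 at D3. Neither separated at any dose, and the second probe of Insig2 was at 0.23 at D1 and 0.21 at D3, opposite in sign to the first. Stard4 read 0.42, 0.17, 0.35 and 0.32 in the vehicle mice, 0.49, 0.41 and 0.49 at D1, 0.47, −0.44, 0.60 and 0.72 at D2 and 0.49, 0.50, 0.54 and 0.57 at D3, and all 4 D3 mice were above all vehicle mice, as they were for the protease gene Mbtps1, by 0.21 ± 0.19 and 0.27 ± 0.16 (background 2.94% without overlap upward). The second probe of Stard4, well above background on 7 of 15 lung arrays, was at −0.23 at D3 (limma adjusted p = 0.694). Mbtps1 was also the 1 member without overlap upward at D1 (background 1.73%), but its second probe, well above background on 13 of 15 lung arrays, was at −0.096 at D1 and 0.17 at D3. D2 mouse 12 had the lowest lung value of Stard4 (−0.44), Mbtps1 (−0.39) and Insig1 (−0.59). Its lung held skeletal muscle, forestomach squamous and fat markers, and the part of those cells in its values was not tested.

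**Figure D4:**
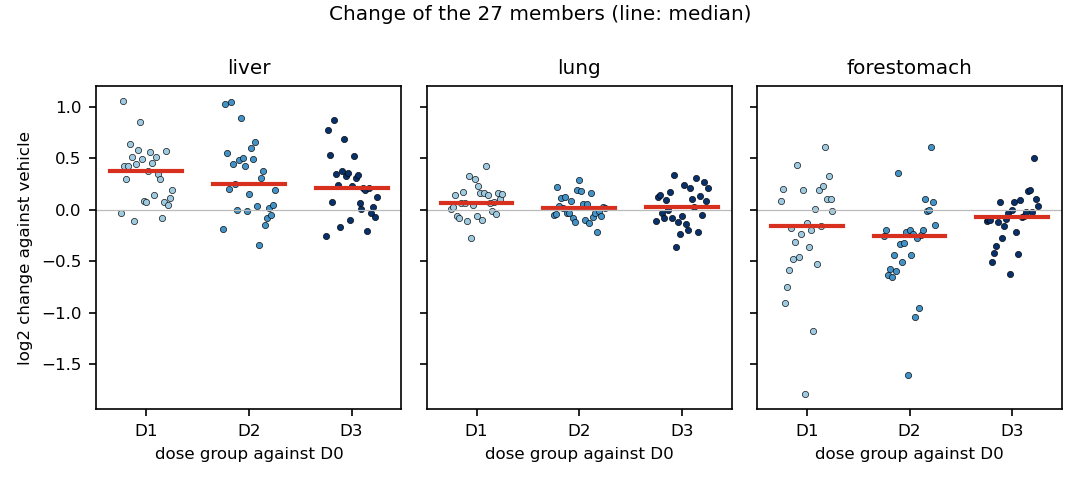
Log2 change against vehicle (vertical axis) of each of the 27 members as points, in member order, by dose group and tissue, with a line at the median. The medians were 0.38, 0.25 and 0.22 in liver, 0.069, 0.02 and 0.023 in lung and −0.16, −0.26 and −0.074 in forestomach, and no point passed the call.

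Forestomach values leaned downward at the middle dose. No member was called by limma at D1, D2, D3 or in the trend, and neither was any of the 25305 probes (0%). At D2, 23 of 27 members were below vehicle with a median of −0.26, where 52.8% of all probes were above. The D1 median was −0.16 (16 below, and 22 with the slide as a block) and the D3 median −0.074 (19 below). At an unadjusted p under 0.05, 4 members were lower at D1 (7.87% of all probes), 5 at D2 (4.9%) and 1 at D3 (0.83%). They were Mvk, Pmvk, Tm7sf2 and Hsd17b7 at D1, Pmvk, Fdps, Tm7sf2, Hsd17b7 and Sc5d at D2, and Pmvk at D3, while Mbtps1 was higher at D2 (2.69%), D3 (1.37%) and in the trend (1.84%). None was higher at D1 (4.26%) or lower in the trend (0.972%). Without overlap, 3 members were lower at D1 (background 9.21%), 5 at D2 (2.16%; Mvk, Pmvk, Tm7sf2, Hsd17b7 and Sc5d) and 1 at D3 (1.11%), and Insig1 was higher at D1 (background 5.62%), with none higher at D2 (1.39%) or D3 (1.79%). With the glandular stomach score as a covariate the medians were −0.13 at D1, −0.27 at D2 and −0.07 at D3. The D1 median was −0.057 without vehicle mouse 1, −0.076 without D1 mouse 7 and −0.074 without D1 mouse 8, and the D2 median −0.40 without D2 mouse 12 and −0.39 without vehicle mouse 2. White fat scores were 3.21 and 1.73 in vehicle mice 4 and 1 and at most 0.19 in the D1 and D2 mice, and their part in the lower values was not tested. Without D3 mouse 16, whose forestomach also held white fat markers, 14 members were above vehicle at D3.

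Tm7sf2 read 4.41, 3.79, 3.31 and 2.93 in the vehicle mice, 1.81, 1.58 and 2.06 at D1, 2.89, 1.59, 2.05 and 1.51 at D2 and 3.43, 2.05 and 3.49 at D3 in forestomach. All D1 and D2 mice were below all vehicle mice, and D3 mice 16 and 20 were within the vehicle range. The change was −1.79 ± 0.43 at D1, −1.6 ± 0.40 at D2 and −0.62 ± 0.43 at D3 (limma adjusted p = 0.259, 0.483 and 1), and the second probe gave −1.56 and −1.40 at D1 and D2. Fitted with only the D0 and D1 arrays, where the share of all probes called is not given, Tm7sf2 was called at D1 (adjusted p = 0.0429, limma). Among the arrays with low glandular stomach scores it stood at 4.41 and 2.93 in vehicle mice 1 and 4, 2.89 in D2 mouse 11 and 3.43 and 3.49 in D3 mice 16 and 20. Among those with high scores it stood at 3.79 and 3.31 in vehicle mice 2 and 3 and from 1.51 to 2.06 in the treated mice. With that score as a covariate the changes were −1.35 at D1 and −1.34 at D2 (limma adjusted p = 0.753 and 0.54).

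Pmvk, phosphomevalonate kinase, gave 0.96, 0.66, 0.88 and 0.98 in the vehicle mice, −0.022, 0.007 and 0.37 at D1, 0.56, −0.045, 0.47 and 0.20 at D2 and 0.36, 0.16 and 0.55 at D3. Every treated mouse was below every vehicle mouse, with changes of −0.75 ± 0.17 at D1, −0.57 ± 0.16 at D2 and −0.51 ± 0.17 at D3 (limma adjusted p = 0.259, 0.483 and 1). Its second probe, well above background on 14 of 14 forestomach arrays, was at −0.87, −0.74 and −0.26. With the glandular score as a covariate the D1 change was −0.59. Sc5d gave 2.01, 2.36, 2.03 and 2.02 in the vehicle mice, 1.3, 1.06 and 2.37 at D1, 1.44, 1.28, 0.58 and 1.3 at D2 and 2.1, 1.78 and 2.21 at D3. All 4 D2 mice were below all vehicle mice, a change of −0.96 ± 0.26 (limma adjusted p = 0.483), and this stood at −0.94 with the score as a covariate, while D3 was at −0.074 ± 0.28. Hsd17b7, shown after its values were seen, read 2.62, 1.1, 1.33 and 1.13 in the vehicle mice, 0.47, 0.072 and 0.55 at D1, 1.06, 0.12, 0.68 and 0.16 at D2 and 1.17, 0.61 and 1.57 at D3. D1 and D2 lay below all vehicle mice, at −1.18 ± 0.37 and −1.04 ± 0.34, and at −0.75 and −0.79 with the score as a covariate, and vehicle mouse 1 stood apart at 2.62. Without that mouse the D2 change was −0.68, and the second probe gave −0.73 at D1 and −0.87 at D2.

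**Figure D5:**
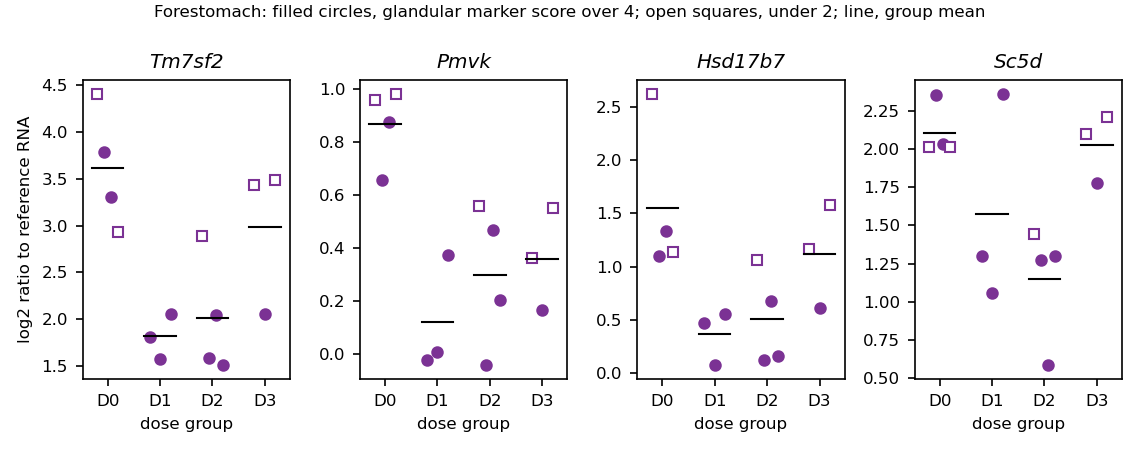
Log2 ratio to the reference RNA (vertical axis) of Tm7sf2, Pmvk, Hsd17b7 and Sc5d in each forestomach by dose group (horizontal axis), with filled circles for arrays with high and open squares for arrays with low glandular stomach scores, and a line at the group mean. D1 and D2 sit below D0 for Tm7sf2, Pmvk and Hsd17b7, and all D1 arrays are filled circles.

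The other enzymes followed in each tissue were Hmgcs1, Idi1, Fdft1, Sqle and Cyp51. Hmgcs1 in forestomach gave 1.41, 0.82, 1.64 and 1.68 in the vehicle mice, 1.44, 1.35 and 1.99 at D1, 0.65, 1.73, 1.3 and 1.09 at D2 and 0.70, 1.96 and 1.25 at D3. Idi1 gave 1.76, 1.2, 1.46 and 0.55 in the vehicle mice, 1.12, 0.83 and 1.26 at D1, 0.59, 1.28, 0.56 and 0.76 at D2 and 0.69, 1.32 and 0.67 at D3. Their groups overlapped at every dose, with changes from −0.44 to 0.20. Fdft1 gave 1.17, 0.16, 0.43 and −0.40 in the vehicle mice, 1.19, 0.61 and 0.52 at D1, −0.58, 0.74, −0.13 and −0.0001 at D2 and −0.56, 1.14 and −0.39 at D3, the widest range of the 3, and its change was 0.43 ± 0.45 at D1 and −0.33 ± 0.41 at D2. Sqle read −0.35, −0.43, −0.29 and 0.013 in the vehicle mice, −1.1, −1.26 and 0.20 at D1, −0.90, −0.39, −0.91 and −0.88 at D2 and −0.69, −0.40 and −0.19 at D3. In D1 mice 7 and 8, in D2 mice 11, 13 and 15 and in D3 mouse 16 it lay below all vehicle mice, for a D2 change of −0.51 ± 0.27 (limma adjusted p = 0.703). Cyp51 read 0.36, −0.39, −0.17 and −0.22 in the vehicle mice, 0.25, −0.12 and 0.14 at D1, −0.65, 0.42, −0.47 and −0.57 at D2 and −0.72, 0.33 and −0.027 at D3, low in those same D2 mice, lowest in D3 mouse 16 (−0.72) and highest in D2 mouse 12. Mvk lay below vehicle without overlap at D2, at −0.63 ± 0.32.

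Of the control genes in forestomach, Srebf2 read −0.47, −0.48, −0.045 and 0.19 in the vehicle mice, −0.55, −0.53 and −0.01 at D1, −0.47, −0.32, −0.11 and −0.69 at D2 and −0.37, −0.21 and −0.091 at D3, a D2 change of −0.20 ± 0.19. Insig1 gave −0.35, 0.21, −0.33 and −0.46 in the vehicle mice, 0.46, 0.42 and 0.24 at D1, −0.83, 0.38, −0.33 and −0.22 at D2 and −0.65, 0.71 and −0.19 at D3. All 3 D1 mice were above all vehicle mice, by 0.61 ± 0.31 (limma adjusted p = 0.452), but Insig1 was well above background on only 2 of the 4 vehicle arrays. Its D1 change was 0.22 with the glandular stomach score as a covariate, 0.41 with the slide as a block and 1.34 with the ratios of the scanner software. Insig2 gave −1.32, −0.70, −0.81 and −0.45 in the vehicle mice, −0.96, −0.79 and −0.41 at D1, −1.15, −0.52, −0.91 and −0.73 at D2 and −1.04, −0.44 and −1.05 at D3. Stard4 gave 0.069, 0.52, 0.48 and 0.13 in the vehicle mice, 0.093, 0.42 and 0.36 at D1, −0.074, 0.53, 0.083 and 0.055 at D2 and 0.00077, 0.54 and 0.47 at D3. Both overlapped at every dose, with changes from −0.15 to 0.10. Mbtps1, also shown after its values were seen, read −1.66, −1.34, −0.84 and −0.54 in the vehicle mice, −0.83, −0.65 and −0.82 at D1, −0.41, −0.45, −0.53 and −0.55 at D2 and −0.75, −0.50 and −0.53 at D3. It was higher than vehicle by 0.61 ± 0.20 at D2 and 0.50 ± 0.21 at D3 (limma adjusted p = 0.535 and 1), vehicle mice 1 and 2 were lowest, and its second probe was well above background on only 3 of 14 forestomach arrays.

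The D3 effects were set against each other between tissues in 1 fit over all arrays. No member was called by limma for liver minus lung (0.0153% of all probes called, 4 probes, and 14 with the mouse as a block), liver minus forestomach (0%) or lung minus forestomach (0.0122%), and the smallest adjusted p was 0.949, for Mvd in liver minus lung, at 0.95 ± 0.45. At an unadjusted p under 0.05 these contrasts held 1, 2 and 0 members, against 5.16%, 3.34% and 4.59% of all probes. The median member difference was 0.19, 0.36 and 0.12.

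Genes around the pathway, counted by 3 lists, were also not called by limma in any tissue or dose. Of 15 genes of sterol disposal and LXR, the receptor that senses oxysterols, 13 were kept in liver and lung and 11 in forestomach. Their median change was −0.033, −0.025 and −0.033 at D1, D2 and D3 in liver, −0.020, 0.073 and −0.056 in lung and 0.10, 0.018 and 0.08 in forestomach. At an unadjusted p under 0.05 they held Cyp27a1 lower in D2 liver (5.55% of all probes), Scarb1 higher (0.682%) and Ch25h lower (1.08%) in D1 lung, Abca1 higher in D2 lung (2.18%) and Mylip lower in D1 forestomach (7.87%). Abca1, the transporter that exports cholesterol, was also higher by 0.67 ± 0.21 in D3 forestomach (1.37%) and was higher in the trend there (1.84%), with a limma adjusted p of 1 in both. The 5 genes of ubiquitin ligases and erlins that control sterol sensing had medians of −0.097, 0.066 and 0.085 in liver, −0.079, −0.10 and −0.096 in lung and 0.43, 0.11 and −0.0074 in forestomach, and held only Erlin1 at that limit, higher in the liver trend (4.13%). The 9 genes of SREBP1 and lipogenesis had liver medians of 0.27, 0.15 and 0.13, lung medians of 0.27, 0.23 and 0.083, and forestomach medians of −0.66, −0.41 and −0.0079. At an unadjusted p under 0.05, the lipogenesis genes held Fasn and Acly higher in D1 liver (0.9% of all probes), and Pnpla3 higher (5.16%) and Srebf1 lower (5.55%) in D2 liver. In lung, Me1 was higher at D1 (0.682%), Fasn at D2 (2.18%), and both at D3 (3.92%) and in the trend (4.31%). In forestomach, Acaca, Acly, Elovl6 and Pnpla3 were lower at D1 (7.87%), and Acly and Elovl6 at D2 (4.9%). The white fat scores were 0.21 to 1.77 in vehicle lungs, 0.83 to 4.36 at D1, 0.96 to 3.64 at D2 and 1.08 to 2.85 at D3. In forestomach they were 3.21 and 1.73 in vehicle mice 4 and 1 and at most 0.19 at D1 and D2, and the glandular stomach scores were high in 2 of 4 vehicle mice, all D1 mice and 3 of 4 D2 mice. The part of either in the lipogenesis values was not tested.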

How the data were processed

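RNA of liver, lung and forestomach (Cy5) was hybridised with a common reference (Cy3) on 42 two-colour Agilent arrays of 15 mice. The authors deposited scanner files whose median intensity values were taken per spot, with log10 ratios of the scanner software, and a matrix of log2 ratios that they had normalized. Per the file headers, the liver arrays were read with Feature Extraction 11.0.1.1 and those of both other tissues with 10.7.3.1. Median intensities without background subtraction were loess-normalized within each array and spots of a probe averaged, giving 55681 probes, of which 47.4% carry a gene symbol. Probes well above background on at least 2 liver, 3 lung or 3 forestomach arrays were kept. Each member was read on its brightest probe (13 of 27 had 2).

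All dose groups of a tissue were fitted together with limma 3.58.1 (data.table version 1.17.8, R 4.3.3; promoters and figures in Python 3.11.15) and p-values adjusted by Benjamini-Hochberg over all kept probes; the methods' MAANOVA was not run. A call needed an adjusted p of at most 0.05 and 1.5-fold. Trends are per 100 mg/kg-bw/day, called on adjusted p alone. Within a tissue each array is a separate mouse. The number of arrays limits precision. The script was tested on simulated data. Alternatives were the software's log10 ratios, normexp with an offset of 50, no filter, the mean over probes, the slide as a block, a glandular stomach covariate, only the 2 groups compared and leaving out each mouse. The authors' log2 matrix was a further alternative in lung and forestomach, and its 13 liver columns were not used.

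Members, lists and tests were chosen with earlier results of these data known. A list of genes that use isoprenoids is not reported here. Per-mouse values were given for 9 fixed genes and, in each tissue, the 3 members with the smallest unadjusted p. Tissues of 1 mouse share its number by the labels, so the mouse as a block across tissues was an alternative to the reported fit without it: the median correlation of same-mouse deviations was 0.071 for liver and lung, 0.029 for liver and forestomach and 0.15 for lung and forestomach, against −0.005, −0.002 and −0.0063 for other mice.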

Additional observations from a re-analysis of the deposited data

Results flagged for a closer look

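Of 189 groups of 4 mice checked, 10 held 1 mouse far from the rest of its group, and chance alone marks about 1 in 20 groups. In D2 lung, mouse 12 stood at −0.60 for Acat2 (others −1.11 to −1.03) and at 0.57 for Pmvk (others −0.18 to −0.07). Its lung held markers of skeletal muscle at 4.49, forestomach squamous epithelium at 2.3, brown fat at 5.38 and white fat at 3.47, whose part was not tested. Mouse 11 stood at −0.73 for Mvk (others −0.18 to −0.07). Mouse 13 stood at 0.054 for Lbr (others −0.27 to −0.23) and at 0.68 for Ebp (others 0.89 to 0.92). In D3 lung, mouse 20 stood at 0.55 for Hmgcs1 (others −0.059 to 0.039), and its white fat score was 2.85 (others 1.08 to 1.52), whose part was not tested.

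In vehicle forestomach, mouse 1 stood at 2.62 for Hsd17b7 (others 1.1 to 1.33) and mouse 2 at 2.36 for Sc5d (others 2.01 to 2.03). The array of mouse 1 had the fewest probes well above background (15632), a white fat score of 1.73 and a glandular stomach score of 0.60. That of mouse 2 had the highest lung marker score of the forestomachs, 1.54. The part of these was not tested. In D2 forestomach, mouse 12 stood at −0.39 for Sqle (others −0.91 to −0.88) and at 0.42 for Cyp51 (others −0.65 to −0.47).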

How the results depend on the processing

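No called value changed sign, but the small median member changes of D2 lung (−0.028 to 0.039 over all alternatives), D3 lung and D3 forestomach (−0.152 to 0.0356) crossed 0. Leaving out each mouse moved the median member change from 0.22 to 0.52 in D1 liver, 0.0611 to 0.515 in D2 liver, 0.106 to 0.321 in D3 liver, 0.0721 to 0.123 in D1 lung, −0.00657 to 0.1 in D3 lung, −0.238 to −0.057 in D1 forestomach and −0.396 to −0.187 in D2 forestomach. The outer values came without D1 mouse 8 and D0 mouse 3 (D1 liver), D2 mice 12 and 11 (D2 liver), D0 mice 4 and 3 (D3 liver), D0 mouse 4 (upper, D1 lung), D3 mice 17 and 16 (lung), D0 mice 2 and 1 (D1 forestomach) and D2 mouse 12 and D0 mouse 1 (D2 forestomach). With the mean over the probes of a gene it was 0.0763 in D3 lung and −0.0289 in D1 forestomach. In D2 forestomach it was −0.411 with the scanner software's ratios and −0.392 with the slide as a block. With only the 2 groups compared, where the share of all probes called is not given, 1 member was called in D1 forestomach (Tm7sf2, −1.79, limma adjusted p = 0.0429). The cause was not tested. With the mouse as a replicate block across tissues, 0 members were called in the D3 contrasts and 25, 20 and 19 in the vehicle contrasts, as without it (the calls of Mbtps1, Srebf2, Ggps1 and Fdft1 that other alternatives ended are given with each contrast), while all probes called for liver minus lung went from 4 to 14. In the vehicle contrasts 15190, 12472 and 11301 of all probes were called with the mouse as a block, and 15141, 12416 and 11232 without it. No paired analysis was possible within a tissue because dose groups share no mouse numbers. The slide as a block in contrasts across tissues was chosen after seeing the data. The authors' table was not run for liver. Signal near background limits Acat2, Insig1 and Mbtps2 in forestomach.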

Other observations

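The authors' processed log2 table followed the scanner values in lung (r from 0.997 to 0.999 per array) and forestomach (0.994 to 0.999), with slopes in forestomach and lung of 0.988 to 0.998. Its 13 liver columns correlated with the liver scanner values at −0.00301 to 0.000338 over probes. Column medians were −0.029 to −0.0017 in liver, −0.036 to −0.026 in lung and −0.043 to −0.032 in forestomach. Why the liver rows differ was not tested.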
